A study of Mus musculus with 237 samples.

Results

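Cells labelled Pax2 mutant cap mesenchyme of the mouse kidney at E18.5, late in gestation, were compared, across all genes, with wild-type interstitium cells of the same age. All 44 cells with the mutant label and all 71 cells with the interstitium label entered, 115 of the 237 cells of the series, and the choice used labels only. The comparison was repeated against the 51 interstitium cells in which Six2 and Pax2 were both under 1 RPKM. Both groups carry the strain label "mixed", no treatment is given, and the Pax2 allele and the cells in which it is altered are not given in the sources used here. The titles of the interstitium cells hold the term FoxD1_GCE, which the labels do not explain, and cells were enriched by flow sorting before single-cell capture and RNA sequencing. For comparison, 74 wild-type E18.5 cap cells are given where they help to place a gene.

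In the embryonic kidney, nephrons arise from the cap mesenchyme, whose progenitors depend on the transcription factors Six2 and Pax2, while the interstitium, or stroma, descends largely from progenitors that express Foxd1 and surrounds the forming tubules with matrix and signals. Stromal cells make fibrillar collagens and, near the kidney surface, retinoic acid, and they divide rapidly in the embryonic organ. The comparison asks how far cells sorted as cap, once Pax2 is altered, hold the transcripts of stroma, and where they do not.

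No label names an embryo, so each group counts as 1 sample, no test between groups was made, and every SD is a spread between cells. The groups differed in more than genotype: all 44 mutant cells are of the title's pool 4, while 22 interstitium cells are of pool 2 and 49 of pool 3, and their titles carry other dates. Xist without a Y-linked transcript was found in 42 of 44 mutant cells and Y-linked transcripts without Xist in 70 of 71 interstitium cells, so group, pool, date and sex cannot be told apart. Mutant cells held 2284 to 5109 genes at 1 RPKM or more (median 3643), against 3085 to 7196 (median 5178) in interstitium cells. Of these, 33 mutant and 35 interstitium cells held 3000 to 5000 genes, and values within this range are given beside many of those over all cells. In the 372 X-linked genes compared, 2.69% were higher and 20.7% lower in mutant cells, close to the 2.03% and 23.4% of autosomal genes.

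One mutant cell went against its label. It held 8 of 9 immune marker genes, with Tyrobp at 7285 RPKM, C1qb at 258 and Ptprc at 224, while Col1a1 was at 3.57 RPKM and Sfrp4 was listed at 0. No other cell of the groups compared held 5 or more of these markers. It was kept, and the counts without it are given beside the totals below. Defining genes of the cap label were rare in the other mutant cells too. Pax2 was listed at 0 in all 44 mutant cells, for which a limit of 3 counts allows up to 6.82% of cells, and Cited1 was listed at 0 in the same cells. Six2 reached 1 RPKM in 1 mutant cell, Eya1 in 1, Crym in 2, Gdnf in 1 and Sall1 in 11. Interstitium cells held Meis1 in 69 of 71, Col1a1 in 67, Pdgfra in 58 and Foxd1 in 41 cells, and 20 of the 71 held Six2 or Pax2 at 1 RPKM or more.

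Values were taken as log2(RPKM + 1), where RPKM is the read count of a gene divided by its length and by the mapped reads of the library, and a difference is the mean over mutant cells minus the mean over interstitium cells. A gene is said to be found in a cell at 1 RPKM or more. The pseudocount of 1 understates the change of low genes. A gene was compared if at least 10% of the cells of either group had it at 1 RPKM. A gene under 10% in 1 group passed through the other group alone, so the direction of its share was fixed by the filter. Of 10903 genes compared, 224 (2.05%) were higher in mutant cells by 1 log2 unit or more and 2546 (23.4%) were lower. The median difference over all of them was -0.41. Without the cell that carries immune markers the counts were 238 and 2491. In cells with 3000 to 5000 genes the median was -0.10, with 519 genes higher and 1197 lower, so the counts were less unequal among cells of like gene number. Of the 224 and 2546 genes, 206 and 1125 were past 1 unit in that range as well. Median-ratio scaling gave a median of -0.33, and measuring each gene from the median of all genes gave 587 higher and 1526 lower. Against the 51 interstitium cells low in Six2 and Pax2, 234 of 10597 genes (2.21%) were higher and 2171 (20.5%) lower.

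**Figure D1:**
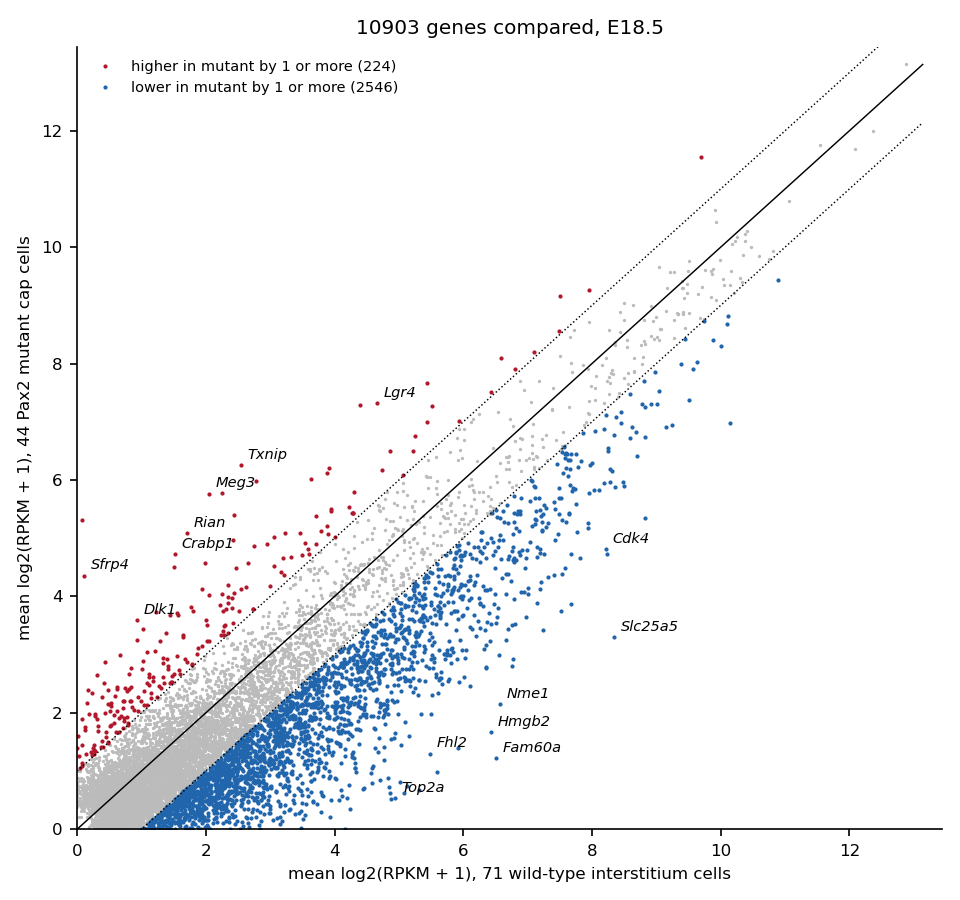
Mean log2(RPKM + 1) of each of 10903 genes in 44 Pax2 mutant cap cells (vertical axis) and 71 wild-type interstitium cells (horizontal axis); the solid line is equality and the dotted lines a difference of 1. The 2546 genes lower in mutant cells (blue) outnumber the 224 higher (red), and the unlabelled red point at the far left near 5 is Xist.

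The 5 genes that mark the mutant cells were Sfrp4, Meg3, Crabp1, Sparcl1 and Matn2, and they were chosen with results of these data known, so their values are a description. Sfrp4, a secreted protein of the frizzled-related family that binds Wnt ligands (chromosome 13, 19623175 to 19632994), held 0 to 896 RPKM with a median of 25.3 in mutant cells, against 0 to 65.5 RPKM with a median of 0 in interstitium cells. Few wild-type cells had it. It reached 1 RPKM in 61.4% of mutant cells (interval 45.5 to 75.6) and in 2.82% of interstitium cells (0.343 to 9.81), and in 1 of 74 cap cells. Sfrp4 passed the filter through the mutant cells alone, so its larger share there was fixed by the filter. Its mean was 4.36 ± 3.88 in mutant cells and 0.11 ± 0.74 in interstitium cells, a difference of 4.25, and 17 mutant cells were under 1 RPKM. Meg3, a long noncoding RNA expressed from the maternal chromosome (chromosome 12, 109540996 to 109571729), held 0.241 to 572 RPKM with a median of 69.3 in mutant cells, against 0 to 273 RPKM with a median of 1.56 in interstitium cells. Nearly every mutant cell had it, 43 of 44 mutant and 38 of 71 interstitium cells, at a difference of 3.72. Crabp1, which binds retinoic acid in the cytoplasm, held 0 to 1371 RPKM with a median of 61.999 in mutant cells, against 0 to 388 RPKM with a median of 0 in interstitium cells. It was found in 31 of 44 mutant and 19 of 71 interstitium cells, and its difference was 3.21.

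Sparcl1, a secreted matricellular protein related to SPARC, held 0.253 to 1249.6 RPKM with a median of 74.4 in mutant cells, against 0 to 245 RPKM with a median of 0.357 in interstitium cells. It was found in 38 of 44 mutant and 34 of 71 interstitium cells, and its difference was 3.54. Matn2, a matrilin that links matrix filaments, held 1.01 to 611 RPKM with a median of 71.4 in mutant cells, against 0 to 290.2 RPKM with a median of 5.32 in interstitium cells, with a difference of 3.21. It was found in all 44 mutant cells but also in 59 of 71 interstitium and 61 of 74 cap cells, so that its level differed more than its presence. All 5 markers were found together in 17 of 44 mutant cells (38.6%, interval 24.4 to 54.5) and in 0 of 71 interstitium cells, for which the limit of 3 counts is 4.23% and the exact upper limit 5.06%. At least 3 were found in 43 of 44 mutant cells, 28 of 71 interstitium cells and 2 of 74 cap cells. Intervals for shares are exact 95% Clopper-Pearson intervals and, like the limit of 3 counts, cover counting error only. For each of the 39 leading genes named by rule the ranges of the groups overlapped, and they overlap for every gene given below with its range.

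**Figure D2:**
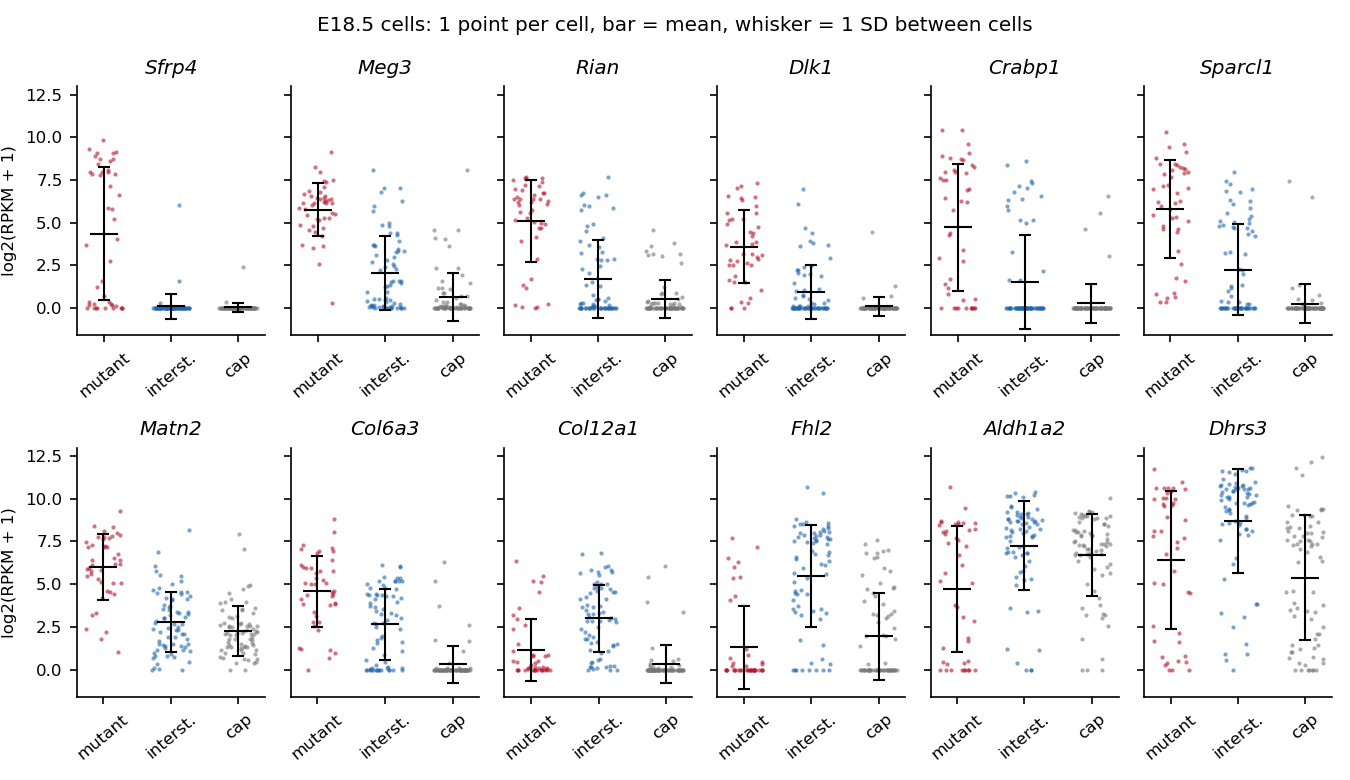
Log2(RPKM + 1) of 12 genes in single E18.5 cells, for 44 Pax2 mutant cap cells (left in each panel), 71 wild-type interstitium cells (middle) and 74 wild-type cap cells (right); bars are means and whiskers 1 SD between cells. Sfrp4 lies at 0 in nearly all interstitium and cap cells and splits the mutant cells into 27 at 1 RPKM or more and 17 under it, while Col12a1 and Fhl2 are high mainly in interstitium cells.

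The other leading genes on the mutant side were of several kinds. Txnip, which binds thioredoxin and restrains glucose uptake, held 0 to 1338 RPKM with a median of 131 in mutant cells, against 0 to 189.6 RPKM with a median of 1.01 in interstitium cells. Its difference was 3.71, and 4.97 in cells with 3000 to 5000 genes. A pair of genes of the R-spondin system was among them: the ligand Rspo3 (2.58, in 28 of 44 mutant and 34 of 71 interstitium cells) and the receptor Lgr4 (2.66). Lgr4 was found in most cells of both groups, 41 of 44 mutant and 64 of 71 interstitium cells, and held 0.222 to 1771 RPKM with a median of 270.1 in mutant cells, against 0 to 380.1 RPKM with a median of 34.7 in interstitium cells. Against the interstitium cells of pool 2 alone its difference was 1.89, and 3.01 against those of pool 3. Figf, the lymphatic growth factor VEGF-D, was found in 34 of 44 mutant and 22 of 71 interstitium cells with a difference of 2.65 in the repeat. Rbm5, an RNA-binding splicing factor (2.89), Mgst1, a microsomal glutathione transferase (2.56), the transcription factor gene Maf (2.51) and BC028528 (2.95) completed the 15 largest positive differences, beside Rian and Dlk1 described next. All 15 stayed past 1 unit against each interstitium pool, against the interstitium cells low in Six2 and Pax2 and in cells with 3000 to 5000 genes, with the lowest of them 1.89 against pool 2 and 2.26 in cells with 3000 to 5000 genes.

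By share of cells, genes of cell surface recognition joined the list. Sema5a, a transmembrane semaphorin, was found in 32 of 44 mutant and 13 of 71 interstitium cells, and Cntn4, a contactin of the immunoglobulin family, in 27 and 6 cells. Pgm5, a relative of phosphoglucomutase found at cell junctions, was found in 29 and 11 cells. Their differences of mean were 2.32 for Sema5a, 2.34 for Cntn4 and 1.67 for Pgm5. Cntn4 passed the filter through the mutant cells alone, so its larger share there was fixed by the filter. It reached 1 RPKM in 5 of 74 cap cells. Of the neural and glial marker list, 3 of 8 could be compared, and none of these was past 1 unit.

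Meg3, Rian and Dlk1 lie in 1 imprinted region of chromosome 12, from which Dlk1 and Rtl1 are known to be expressed from the paternal chromosome and Meg3, Rian and Mirg from the maternal one. In the deposited table the region from Dlk1 to Mirg (109452823 to 109749457, mm10) holds 71 entries, of which 58 are microRNA entries. Of these 58, 14 were above 0 in any mutant or interstitium cell. The 6 entries that could be compared include Rtl1 and Mirg, which passed the filter through the mutant cells alone, so that their larger share there was fixed by the filter. Dlk1, a transmembrane protein related to the Notch ligands, held 0 to 159 RPKM with a median of 10.1 in mutant cells, against 0 to 123 RPKM with a median of 0 in interstitium cells and was found in 38 of 44 mutant and 20 of 71 interstitium cells (difference 2.66). Rian, a noncoding RNA that hosts small nucleolar RNAs, held 0 to 203 RPKM with a median of 65.7 in mutant cells, against 0 to 202 RPKM with a median of 0.211 in interstitium cells and was found in 39 of 44 mutant and 28 of 71 interstitium cells (difference 3.38). The small nucleolar RNA entry AF357425 was found in 14 and 10 cells, Rtl1 in 8 and 4 cells and Mirg in 8 and 1 cells. Cells with Rtl1 and Mirg numbered 0 and 1 of 74 among cap cells. Whether reads were counted by strand is not given in the sources used here, so Rtl1 cannot be told apart from transcripts of the opposite strand.

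Imprinted genes elsewhere were found on both sides. Of 29 imprinted genes compared, 6 were higher by 1 unit or more and 6 lower (median -0.23, against -0.41 for all genes). Over all genes 2.05% were higher and 23.4% lower, so the lower count is near the background. Beside Meg3, Rian and Dlk1 the higher ones were Igf2r (1.34), a receptor that clears IGF2, the cell cycle inhibitor Cdkn1c (1.32) and Gnas (1.01), the stimulatory G protein. Meg3 is a marker chosen with results of these data known. Gnas was the least stable, at 0.79 in the repeat and 0.57 in cells with 3000 to 5000 genes. The lower ones were Peg12 (-4.63), Nnat (-1.62), Slc38a4 (-1.49), Asb4 (-1.38), Mest (-1.31) and Mcts2 (-1.12), the last a retrogene whose reads may be shared with its parent gene. Igf2 differed by 0.89 and H19 by 0.77, both under 1 unit, and Plagl1 by 0.68. Asb4 was listed at 0 in all 44 mutant cells and in all 74 cap cells, and reached 1 RPKM in 21 of 71 interstitium cells, with a difference of -0.49 against pool 2 and -1.78 against pool 3. Asb4 passed the filter through the interstitium cells alone, so its smaller share in mutant cells was fixed by the filter.

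Transcripts that define stroma were held by both groups. Of 14 genes of the cortical and nephrogenic-zone interstitium, 5 were higher in mutant cells and 2 lower, with a median of 0.14, and 6 higher and 2 lower among cells with 3000 to 5000 genes (median 0.54). The shares over all genes were 2.05% higher and 23.4% lower (median -0.41). The higher ones of the 14 were Crabp1, Dlk1, Rspo3, Smoc2 (1.48), a matricellular calcium-binding protein, and Fat4 (1.13), an atypical cadherin by which stroma signals to the cap. Crabp1 is a marker chosen with results of these data known. Fibin (-1.56) and Aldh1a2 (-2.53) were lower. Meis1, a homeobox factor of the stroma, was at 6.96 ± 2.22 in mutant cells and 7.08 ± 1.98 in interstitium cells and Foxd1 at 2.59 ± 2.38 in mutant cells and 2.19 ± 2.07 in interstitium cells, differences of -0.12 and 0.40. In the repeat, against cells low in Six2 and Pax2, 3 genes of this list were higher and 3 lower, because Smoc2 (0.93) and Fat4 (0.76) fell under 1 unit and Sfrp1 passed it (-1.33). Tbx18, a T-box factor of the mesenchyme around the ureter, did not pass 1 unit (0.96). It was found in 10 of 44 mutant and 1 of 71 interstitium cells, and in 0 of 74 cap cells. Tbx18 passed the filter through the mutant cells alone, so its larger share there was fixed by the filter.

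Of 8 medullary interstitium genes, 1 was higher and none lower. It was Cdkn1c, which held 0.629 to 4327 RPKM with a median of 814 in mutant cells, against 3.66 to 2289 RPKM with a median of 307 in interstitium cells. Penk, the enkephalin precursor that marks medullary and deep cortical stroma, was abundant in both groups, with 0 to 3419 RPKM with a median of 449.9 in mutant cells, against 0 to 2756 RPKM with a median of 242 in interstitium cells, and differed by 0.61. Mural, mesangial and renin lineage genes gave 0 higher and 1 lower of 11, a share lower that is below the 23.4% of all genes. The list's median was -0.39, against -0.41 for all genes, and 1 was higher and 2 lower among cells with 3000 to 5000 genes. The lower one over all cells was the pericyte gene Rgs5 (-1.46, in 18 of 44 mutant and 47 of 71 interstitium cells). Pdgfrb, the platelet-derived growth factor receptor of mural cells, was at -0.96. The related receptor Pdgfra, of fibroblasts, was higher instead. It held 0.0909 to 575 RPKM with a median of 106 in mutant cells, against 0 to 192 RPKM with a median of 16.3 in interstitium cells, a difference of 2.23.

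The fibroblast list had 3 of 11 genes higher, Pdgfra, Vim (1.52) and S100a6 (1.86), and none lower (median 0.18), against 5 higher among cells with 3000 to 5000 genes (median 0.63). Over all cells 2.05% of all genes were higher and 23.4% lower (median -0.41). Dcn (decorin, 0.81) and Lum (lumican, 0.95), both small proteoglycans of collagen fibrils, stayed under 1 unit over all cells and were at 1.71 and 1.67 in cells with 3000 to 5000 genes. Among complement and interferon genes the protease C1s (1.96) and Ifitm1 (1.53) were higher, while Ifitm3, a relative of Ifitm1, was at -0.37. Of 23 mesenchymal transcription factors, Prrx1 (1.59, in 22 of 44 mutant and 10 of 71 interstitium cells) and Ebf3 (1.19) were higher, and Tcf4 (-1.75) and Foxc2 (-1.25) lower, with 5 higher and 2 lower among cells with 3000 to 5000 genes. The share of these factors lower over all cells was below the 23.4% of all genes. None of the 24 Hox genes compared, posterior, middle or anterior, was past 1 unit in either direction over all cells, and 2 were higher among cells with 3000 to 5000 genes.

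Matrix genes split by family. Fibrillar and associated collagens gave 3 higher and 1 lower of 12 (median 0.80), against 2.05% higher and 23.4% lower of all genes (median -0.41). All 3 chains of type VI collagen, which forms beaded filaments around cells, made up the higher group: Col6a1 (2.12), Col6a3 (1.93) and Col6a2 (1.65). Col6a3 held 0 to 445 RPKM with a median of 26.996 in mutant cells, against 0 to 69.4 RPKM with a median of 6.59 in interstitium cells. The lower one was Col12a1, a collagen that lies along fibrils, in 12 of 44 mutant and 56 of 71 interstitium cells (-1.86). Col1a1 (0.95), Col1a2 (0.90) and Col3a1 (0.70), the main fibril collagens, were each under 1 unit, and in the repeat they were at 0.33, 0.02 and 0.13. The list's median in the repeat was 0.08.

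Other matrix lists had members on both sides, and their lower counts were near the background. Elastic fibre genes gave 2 higher and 3 lower of 16, a share lower that is below the 23.4% of all genes. The lower ones were Fbln5 (-2.37), which assembles elastic fibres, elastin itself (Eln, -1.27) and the cross-linking enzyme Loxl1 (-1.12), whereas the microfibril-associated genes Ltbp4 (1.70) and Mfap5 (1.20) were higher. Eln and Loxl1 were at -0.74 and -0.71 in cells with 3000 to 5000 genes. Proteoglycan and matricellular genes gave 4 higher and 4 lower of 19: Sparcl1, Matn2, Postn (1.55) and Smoc2 against Cyr61 (-3.07), the glypicans Gpc3 (-1.70) and Gpc6 (-1.65), and fibromodulin (Fmod, -1.10). Sparcl1 and Matn2 are markers chosen with results of these data known. In cells with 3000 to 5000 genes this list had 6 higher and 5 lower, and its 4 of 19 lower over all cells is near the 23.4% of all genes. Cyr61, a matricellular target of stretch signalling, held 0 to 319 RPKM with a median of 0 in mutant cells, against 0 to 1167 RPKM with a median of 14.1 in interstitium cells. Fn1 (fibronectin) and Sparc were level, at 0.04 and 0.11.

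Nephron progenitor transcripts were lower in mutant cells than in all interstitium cells, but less so in other sets of cells. Of 13 nephron progenitor genes compared, 7 were lower and none higher (median -1.01). The shares over all genes were 23.4% lower and 2.05% higher (median -0.41). Among cells with 3000 to 5000 genes 2 of the 13 were lower, with a median of -0.38, and under median-ratio scaling 4 were. The repeat gave a median of 0.05 with 2 genes lower, since the choice of cells low in Six2 and Pax2 also removed most with Eya1 (0 of 51) or Crym (2 of 51). The 2 were Gdnf, the ligand that draws the ureteric bud, and Sall1. Gdnf was at 0.14 ± 0.96 in mutant cells and 2.85 ± 2.45 in interstitium cells (-2.71, and -2.46 in the repeat). It was found in 1 of 44 mutant and 46 of 71 interstitium cells, in 36 of 74 cap cells and in 32 of the 51 interstitium cells low in Six2 and Pax2. Gdnf passed the filter through the interstitium cells alone, so its smaller share in mutant cells was fixed by the filter. Wt1, a zinc finger factor of cap and podocytes, was found in 25 of 44 mutant and 58 of 71 interstitium cells (-1.01). Few markers of other cell types passed the filter, with 4 of committing nephron, 2 of podocyte, 1 of tubule, 2 of ureteric epithelium, 3 of endothelium and 0 of erythroid cells. None of these was past 1 unit over all cells, and 1 committing nephron gene was higher among cells with 3000 to 5000 genes. No mutant cell had 3 or more markers of any of these types. Of skeletal muscle and cartilage markers 3 passed the filter. Of these, 1 was higher over all cells, in the repeat and among cells with 3000 to 5000 genes, and none was lower. At least 3 markers of that list were found in 1 mutant and 2 interstitium cells.

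Cell cycle lists had the most negative medians of the lists compared. In the G2 and M phase list 15 of 16 genes were lower in mutant cells and none higher, with a median of -2.78, and in the S phase list 14 of 15 were lower, with a median of -2.88. The share lower among all genes was 23.4%. In cells with 3000 to 5000 genes the medians were -1.53 and -1.68, with 13 and 11 genes lower. Many G2 and M phase genes are known to share promoter elements, the CCAAT box bound by NF-Y and, near the start site, the element TTTGAA (the CHR) bound by the MuvB complexes that switch them off in resting cells and on in dividing ones. For that reason the promoters of Cdk1, Ccnb2 and Top2a are shown, 250 bases before to 50 after the RefSeq start (GRCm38.p6, minus strand of chr10:69352863-69353162, chr9:70421505-70421804 and chr11:99024140-99024439), 5′ to 3′, with the box CCAAT (reverse complement ATTGG) and the element TTTGAA (reverse complement TTCAAA) in capitals.
Cdk1: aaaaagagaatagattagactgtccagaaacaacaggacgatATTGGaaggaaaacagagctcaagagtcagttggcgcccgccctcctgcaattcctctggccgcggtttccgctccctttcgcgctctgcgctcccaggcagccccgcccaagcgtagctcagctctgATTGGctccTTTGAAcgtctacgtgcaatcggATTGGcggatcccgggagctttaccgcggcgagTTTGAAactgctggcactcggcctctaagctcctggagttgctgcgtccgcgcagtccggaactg
Ccnb2: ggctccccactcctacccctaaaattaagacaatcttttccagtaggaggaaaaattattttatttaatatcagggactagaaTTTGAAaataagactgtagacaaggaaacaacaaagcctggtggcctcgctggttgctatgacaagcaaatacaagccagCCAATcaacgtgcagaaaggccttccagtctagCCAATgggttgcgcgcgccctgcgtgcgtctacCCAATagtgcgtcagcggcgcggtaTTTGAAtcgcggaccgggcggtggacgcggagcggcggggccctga
Top2a: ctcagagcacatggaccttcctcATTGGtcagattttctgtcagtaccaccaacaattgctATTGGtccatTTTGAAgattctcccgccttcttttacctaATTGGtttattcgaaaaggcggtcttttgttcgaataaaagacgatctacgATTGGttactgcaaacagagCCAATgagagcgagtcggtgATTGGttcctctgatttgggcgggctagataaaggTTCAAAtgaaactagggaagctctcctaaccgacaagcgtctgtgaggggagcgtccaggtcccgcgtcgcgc

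Both elements were common in this list. RefSeq windows were found for 13 of the 16 genes, taking any window of a gene, and CCAAT on either strand was in 13 of 13, against 43.8% of 8050 compared genes with a window. TTTGAA on either strand was in 10 of 13, against 14.1%, and 10 of 13 held both, against 6.01%. Of the 14 TTTGAA matches in the list, 11 lay within 100 bases before the start or after it. Ccnb1, Bub1 and Cenpe held no TTTGAA in the window. S phase genes held CCAAT in 9 of 13 and TTTGAA in 1 of 13. Genes lower in mutant cells as a whole were close to the background, with CCAAT in 47.3% and TTTGAA in 16.8%, as were genes higher in them, at 40.1% and 18.4%. A match is a run of letters and not a shown binding site.

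The genes of these promoters were at 0 in most mutant cells. Top2a, the topoisomerase that untangles DNA before division, held 0 to 745 RPKM with a median of 0 in mutant cells, against 0 to 673 RPKM with a median of 80.5 in interstitium cells, and was found in 2 of 44 mutant and 53 of 71 interstitium cells (-4.41). Cdk1, the kinase that starts mitosis, held 0 to 154 RPKM with a median of 0 in mutant cells, against 0 to 487 RPKM with a median of 39.4 in interstitium cells (-3.74), and its partner cyclin Ccnb2 was found in 1 of 44 mutant and 39 of 71 interstitium cells (-3.34). Top2a and Ccnb2 passed the filter through the interstitium cells alone, so their smaller share in mutant cells was fixed by the filter. Mki67 was at -3.29 and Ube2c, which marks proteins for destruction at anaphase, at -3.87. Cdc20 alone stayed under 1 unit (-0.67) and was listed above 1 RPKM in all 115 cells. Among S phase genes Pcna (-3.53), Rrm2 (-3.54) and Mcm7 (-3.42) were lower, and Cdt1 was not past 1 unit (-0.47).

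Counted cell by cell, 2 of 44 mutant cells held 5 or more of 15 G2 and M phase genes (4.55%, interval 0.555 to 15.5), against 52 of 71 interstitium cells (73.2%, 61.4 to 83.1). Among cap cells the count was 56 of 74. The median cell held 1 such gene among mutant cells and 10 among interstitium cells. For 5 or more of 12 S phase genes the counts were 3 of 44 and 56 of 71. The 15 genes are the G2 and M phase list without Cdc20, and the 12 the S phase list without Tyms, Slbp and Cdt1. Cdc20 and Cdt1 were the members of these lists not past 1 unit, so the counts leave them out. Tyms and Slbp were past 1 unit and were left out as well. All members counted were thus already known to be lower by 1 unit or more. That choice set the direction of the counts, which are a description. In the cells with 3000 to 5000 genes the counts were 1 of 33 and 19 of 35 for G2 and M phase, and 3 of 33 and 22 of 35 for S phase. Cells of like gene number thus differed in the same direction. One of the 2 mutant cells held all 15 genes with Top2a at 745 RPKM, and it was the only mutant cell with Six2 at 1 RPKM or more (28.8 RPKM). The other held 5 of the 15 and had the fewest genes of the mutant cells, 2284. Both held Col1a1 (156 RPKM in the first and 193 in the other) and lacked Sfrp4.

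**Figure D3:**
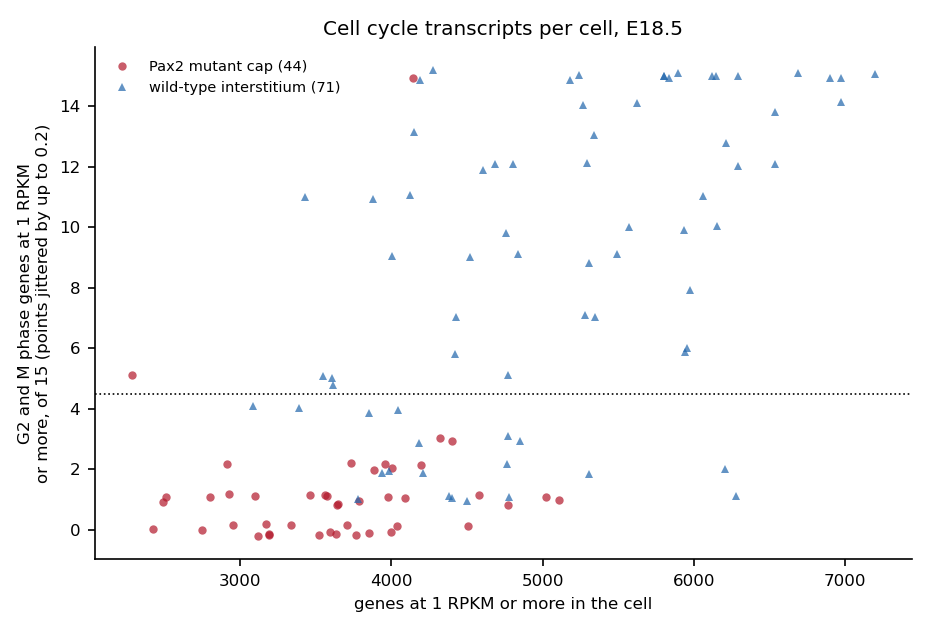
Number of 15 G2 and M phase genes at 1 RPKM or more in each cell (vertical axis) against the number of all genes at 1 RPKM or more (horizontal axis), for 44 Pax2 mutant cap cells (red circles) and 71 wild-type interstitium cells (blue triangles). Above the dotted line are cells with 5 or more, 2 mutant and 52 interstitium cells. Cdc20 was left out of the genes counted, which were all lower in mutant cells by 1 unit or more.

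Genes that drive entry into the cycle were lower and several brakes were higher. In the list of G1 cyclins and Myc, 7 of 11 were lower and none higher (median -1.87), against 23.4% lower and 2.05% higher of all genes. Cdk4, the G1 kinase, held 0 to 634 RPKM with a median of 53.2 in mutant cells, against 3.36 to 1082 RPKM with a median of 389 in interstitium cells (-3.41). Its D-type cyclins Ccnd1 (-2.81) and Ccnd2 (-2.23) were lower, as was Mycn (-2.16, in 1 of 44 mutant and 33 of 71 interstitium cells). Mycn passed the filter through the interstitium cells alone, so its smaller share in mutant cells was fixed by the filter. Ccnd1 was found in 10 of 44 mutant and 54 of 71 interstitium cells and in 12 of 74 cap cells. Of 11 genes of cell cycle exit, 4 were higher: Btg2 (1.68), Btg1 (1.65), Gas1 (1.49) and Cdkn1c (1.32), and Gas2 was lower (-1.64). Btg1 held 0 to 2065 RPKM with a median of 153 in mutant cells, against 0 to 292 RPKM with a median of 63.9 in interstitium cells. In the repeat Cdkn1c was at 0.76, under 1 unit. Cdkn1a, the p53-induced inhibitor, was found in 2 of 44 mutant and 3 of 71 interstitium cells.

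Targets of fibroblast growth factor signalling were lower. Of 11 genes of this list, 6 were lower and none higher (median -1.26), and 5 among cells with 3000 to 5000 genes (median -0.63). All genes compared were 23.4% lower and 2.05% higher, with a median of -0.41, and of -0.10 in that range. Spry2, which damps receptor tyrosine kinases, held 0 to 470.2 RPKM with a median of 30.5 in mutant cells, against 0 to 591 RPKM with a median of 162 in interstitium cells (-3.34). Spry4 (-3.16), Spry1 (-2.06), Etv5 (-2.43) and the receptor Fgfr1 (-1.26) were lower too. Dusp6, the phosphatase that ERK induces against itself, was found in 5 of 44 mutant and 59 of 71 interstitium cells (-3.25), with -1.81 against pool 2 and -3.89 against pool 3. A single mutant cell held 3482 RPKM of Dusp6, so that the log2 ratio of the group mean RPKM was 0.79, the opposite sign. Fgfr1 was under 1 unit in cells with 3000 to 5000 genes (-0.51).

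Most retinoic acid genes past 1 unit were lower, as were most of all genes past it (2.05% higher and 23.4% lower). Of 12 compared, 5 were lower and 1 higher, and the higher one was Crabp1, a marker chosen with results of these data known. The list's median was -0.38, against -0.41 for all genes. In cells with 3000 to 5000 genes these medians were -0.34 and -0.10. The synthetic enzyme Aldh1a2 held 0 to 1673 RPKM with a median of 42.6 in mutant cells, against 0 to 1332 RPKM with a median of 273 in interstitium cells (-2.53). Dhrs3, a retinaldehyde reductase that retinoic acid induces, held 0 to 3479 RPKM with a median of 215 in mutant cells, against 0 to 3599.8 RPKM with a median of 865 in interstitium cells (-2.28). Ecm1, a stromal secreted protein that retinoic acid induces in the kidney (-2.37), the second binding protein Crabp2 (-1.93) and Rdh10 (-1.09), which makes retinaldehyde, were lower as well, while the receptor Rarb was level (-0.10). In the repeat Aldh1a2 was at -2.95 and Ecm1 at -3.16.

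Among BMP and TGF-beta genes, 2 were higher and 4 lower of 15. The shares over all genes were 2.05% higher and 23.4% lower, so the lower count is near the background. The co-receptor Tgfbr3 (2.06) and the ligand Tgfb2 (1.85) were higher, and the BMP targets Id1 (-1.68), Id2 (-1.48) and Id3 (-1.82) and the receptor Bmpr1a (-1.11) lower. The Id genes were under 1 unit in other sets of cells. In cells with 3000 to 5000 genes Id1, Id2 and Id3 were at -0.67, 0.03 and -0.79, and Id2 and Id3 were at -0.73 and -0.84 against pool 2. The cause of these shifts was not tested. PDGF and IGF genes gave 2 higher, Pdgfra and Igf2r, and 6 lower of 16, among them the IGF-binding proteins Igfbp3 (-1.65), Igfbp4 (-1.42), Igfbp5 (-1.31) and Igfbp7 (-1.25). Igfbp7 was at -0.63 against pool 3. No Wnt target of 8 and no Notch gene of 7 was past 1 unit over all cells, while the Notch list had 2 higher and 1 lower among cells with 3000 to 5000 genes. Of 12 immediate early genes, which tissue digestion is known to induce, 2 were higher, Jun (2.24) and Klf6 (1.20), Ier2 was lower (-1.31), and Fos was at 0.75. In the repeat 3 were higher and 0 lower, with Ier2 at -0.94, and among cells with 3000 to 5000 genes 4 higher and 1 lower.

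**Figure D4:**
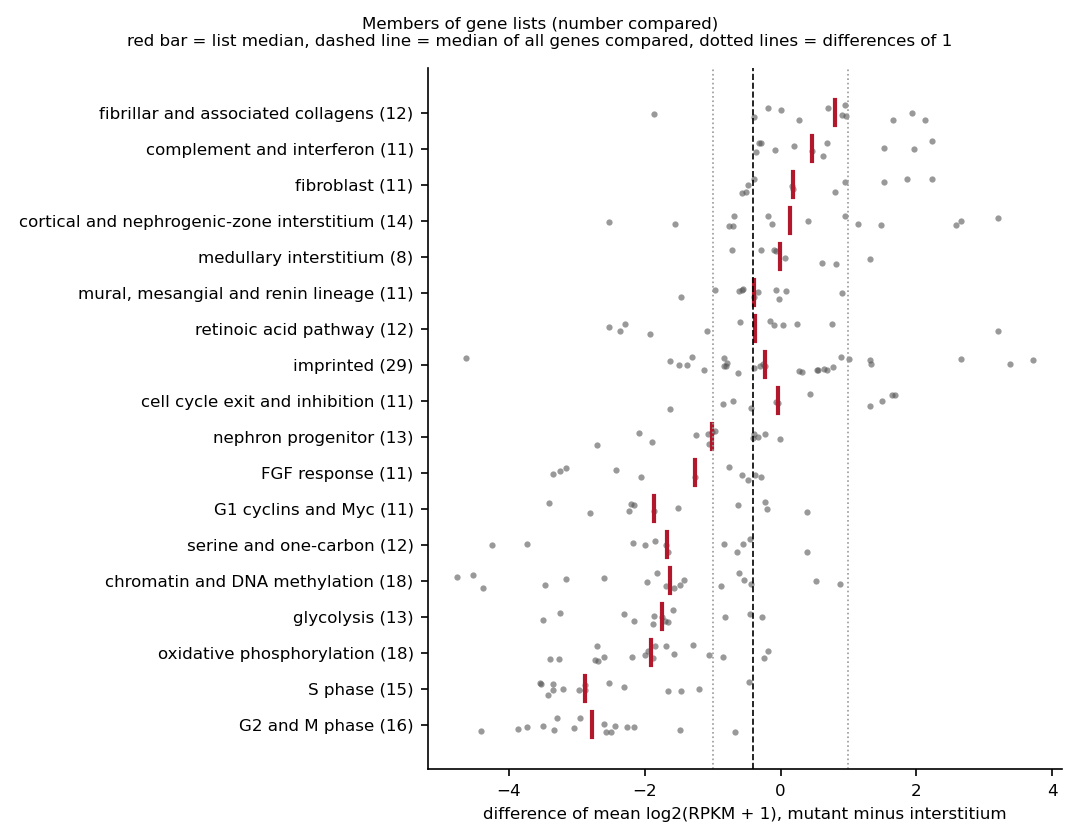
Differences of mean log2(RPKM + 1), mutant minus interstitium, for the compared members of 18 gene lists (grey points, 1 per gene), with the list median as a red bar, the median of all 10903 genes (-0.41) as a dashed line and differences of 1 as dotted lines. The collagen and fibroblast lists lie right of the dashed line, and the S phase and G2 and M phase lists lie farthest left, at -2.88 and -2.78.

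Growth and energy genes were lower as groups. Of 13 glycolysis genes 10 were lower (median -1.75), of 18 oxidative phosphorylation genes 15 (-1.91), and of 12 serine and one-carbon genes 7 (-1.68), with none higher in any of the 3. The shares over all genes were 23.4% lower and 2.05% higher (median -0.41). Pkm, the last enzyme of glycolysis, held 0 to 512 RPKM with a median of 64.9 in mutant cells, against 3.47 to 1805 RPKM with a median of 419 in interstitium cells (-3.50). Phgdh, the first enzyme of serine synthesis, held 0 to 178 RPKM with a median of 0 in mutant cells, against 0 to 679 RPKM with a median of 50.2 in interstitium cells (-4.25), and the next step, Psat1, was found in 1 of 44 mutant and 46 of 71 interstitium cells (-3.73). Psat1 passed the filter through the interstitium cells alone, so its smaller share in mutant cells was fixed by the filter. Fewer members of these 3 lists were lower in cells with 3000 to 5000 genes: 4, 9 and 3, with medians of -0.86, -1.07 and -0.67. The median of all genes in that range was -0.10. Whether gene number accounts for these shifts was not tested. Ubiquitous genes, a list of 12, gave 6 lower in all cells and 2 in that range, with Actb at 0.26 and Eef1a1 at -0.40.

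Chromatin genes gave 12 lower of 18 (median -1.63), and 2 higher and 8 lower among cells with 3000 to 5000 genes (median -0.86). Over all cells 23.4% of all genes were lower and 2.05% higher (median -0.41). Hmgb2 held 0 to 492 RPKM with a median of 0.157 in mutant cells, against 0 to 547 RPKM with a median of 149 in interstitium cells (-4.77), and Hmgb3, a relative on the X chromosome, was at -4.52. Both encode high-mobility-group proteins that bend DNA. Uhrf1 (-4.39), which guides DNA methylation to newly copied strands, its partner Dnmt1 (-1.83), the lamin Lmnb1 (-3.47) and the histone methyltransferase Ezh2 (-2.60) were lower. In the list of developmental timing, 3 of 5 were lower, with Hmga1 at -2.90 Hmga2, abundant in early embryonic cells, at -1.93 and Igf2bp3 at -1.03.

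The largest negative differences came from these same groups and a few others. Fam60a, a subunit of the SIN3 histone deacetylase complex (chromosome 6, 148921059 to 148946432), led with -5.29 and held 0 to 925 RPKM with a median of 0 in mutant cells, against 0 to 948 RPKM with a median of 199 in interstitium cells. Slc25a5, an ADP/ATP carrier of mitochondria (-5.05), Peg12 (-4.63), Enc1, an actin-binding kelch protein (-4.60), the nuclear import factor Kpna2 (-4.47), Nme1, a nucleoside diphosphate kinase (-4.42), Fxyd6, a sodium pump regulator (-4.21), Cks2, which binds cyclin-dependent kinases (-4.12), and the pyrophosphatase Ppa1 (-3.95) followed. Enc1 and Fxyd6 were also high in cap cells, in 72 and 67 of 74. Reads of genes with near-identical copies, such as Slc25a5, Hmgb2 and Gapdh, may have been split or lost in the authors' counting. By share of cells, Cdca7 (5 of 44 mutant and 60 of 71 interstitium cells), a chromatin factor of replicating cells, and Foxd2os (3 and 56 cells), the transcript opposite Foxd2, were added. Foxd2os passed the filter through the interstitium cells alone, so its smaller share in mutant cells was fixed by the filter. All 15 stayed past 1 unit against each pool, in the repeat and among cells with 3000 to 5000 genes, where they lay between -4.02 and -2.49.

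Fhl2, a LIM-domain cofactor, was also among the 15 largest negative differences. It held 0 to 206 RPKM with a median of 0 in mutant cells, against 0 to 1635 RPKM with a median of 88.2 in interstitium cells (-4.19), and was found in 32 of 74 cap cells. In the repeat it led the negative differences, at -5.08, and Mgp, an inhibitor of calcification in matrix (-4.36), and Tm4sf1, a membrane protein of the tetraspanin-like kind (-4.00), entered the 15.

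Against the interstitium cells low in Six2 and Pax2 the leading genes changed little on the higher side. Of the 15 largest positive differences 14 were the same, with Dlk1 (2.39) giving place to Klhl42 (2.40), and of the 15 largest negative differences 10 were the same. Of the 224 genes higher and 2546 lower against all interstitium cells, 189 and 2054 were also past 1 unit in the repeat. Both comparisons share their mutant cells and 51 interstitium cells. Against each pool of interstitium separately 164 genes were higher and 1843 lower. Between the pools of interstitium themselves 224 genes were higher and 446 lower by 1 unit or more in pool 2 than in pool 3.

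**Figure D5:**
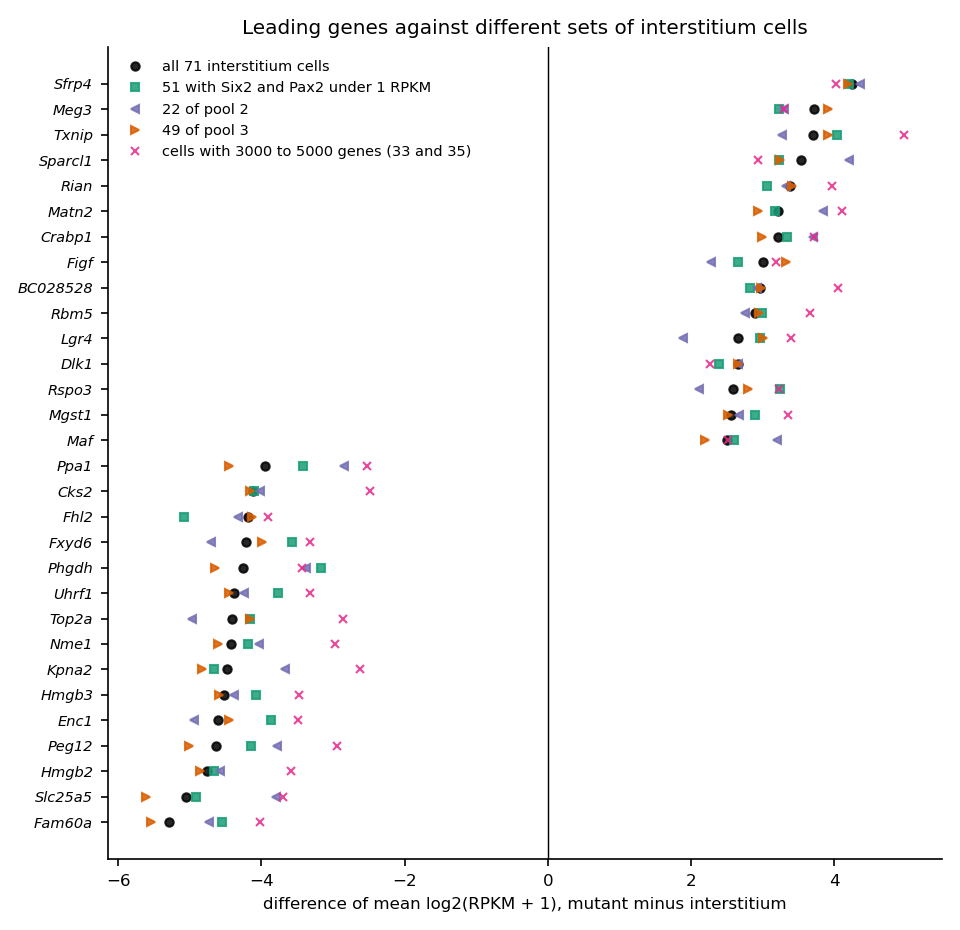
Difference of mean log2(RPKM + 1), mutant minus interstitium, for 30 leading genes, 15 in each direction, against all 71 interstitium cells (black circles), the 51 low in Six2 and Pax2 (green squares), the 22 of pool 2 (left triangles), the 49 of pool 3 (right triangles), and between the 33 mutant and 35 interstitium cells with 3000 to 5000 genes (crosses). No gene crosses 0, and the negative values are nearer 0 in cells with 3000 to 5000 genes, at -4.02 to -2.49.

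As whole profiles the mutant cells lay nearer to interstitium than to cap. Over 11510 genes, 42 of 44 mutant cells correlated more with the mean of interstitium than with that of cap cells, with medians of Pearson's r of 0.560 and 0.516. Of interstitium cells 62 of 71 did so, and of cap cells 4 of 74, each with its own value left out of the mean. The differences were small, at most 0.0648 in a mutant cell, and the points share a library design and unequal gene numbers, so r is a description. The 2 mutant cells nearer to cap were the one with immune markers and the one with the fewest genes, 2284.

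Mutant cells also differed among themselves. Sfrp4 was found in 27 of 44, and these cells held a median of 3708 genes, against 3573 in the 17 without it. Of the 41 mutant cells with Pdgfra all 27 with Sfrp4 were included, while of the 14 cells with Lum only 4 had Sfrp4. Crabp1 was found in 20 of the 27 and 11 of the 17, Meg3 in 26 and 17, and Col1a1 in all of both. These genes were chosen after their values were seen.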

How the data were processed

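Single-cell RNA-seq of sorted mouse kidney cells was analysed from 1 table that the authors deposited, whose RPKM values they made from reads aligned with TopHat to mm10, per the submitters' processing notes. The counting rule and strand use are not given in the sources used here. Read depth is unknown, because low values showed no steps of single reads, so genes per cell at 1 RPKM or more stand in for it. Cells were grouped by the labels, and 1 cell whose labels gave no group was left out. Counts, means and exact Clopper-Pearson intervals came from Python 3.11.15 with numpy 2.4.6, pandas 2.3.3 and scipy 1.17.1, and the script was tested on simulated data. Each group counted as 1 sample, so a gene was called by its difference, 1 or more on the log2(RPKM + 1) scale, with no test.

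Named genes were Pax2, Six2, the 5 markers, the 15 largest differences each way among genes in 50% of the higher group's cells, the 8 largest differences in share each way, and up to 4 members of each of 46 lists with those needed to account for a count. Gm, LOC and Rik gene models, mitochondrial, ribosomal, haemoglobin and sex-linked genes were left out of the leading genes, and some genes the rule names are not reported here. The members and lists were chosen with earlier results of these data known. Promoter windows came from RefSeq, matched by symbol. Alternatives were other pseudocounts, filters, scalings and sets of cells.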

Additional observations from a re-analysis of the deposited data

How the results depend on the processing

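No paired analysis was possible because the result comes from no test and cell numbers do not link cells across groups. With a pseudocount of 0.1, 480 genes were higher and 4807 lower in mutant cells (577 and 4139 in the repeat against interstitium low in Six2 and Pax2), and with 10 they were 64 and 639 (54 and 555). Measured from the median of all genes they were 587 and 1526 (560 and 1395), and in cells with 3000 to 5000 genes 519 and 1197 (554 and 1168). By the ratio of mean RPKM 1607 genes were higher (1744 in the repeat), and with a filter at 50% of cells 154 were higher in the repeat. Among lists, the S phase median was -4.68 with a pseudocount of 0.1 and -1.49 with 10, and the FGF response median -2.19 and -0.46. The G1 cyclin and Myc median was -0.82 with 10, the oxidative phosphorylation median -0.68 by the ratio of mean RPKM, and the nephron progenitor median 0.0507 in the repeat, whose cells were chosen for low Six2 and Pax2. Of the named genes, Dusp6 reversed to 0.79 by the ratio of mean RPKM, through 1 mutant cell, and Six2 to 0.13 in the repeat, by the choice of its cells. The cause of the other shifts was not tested. No replicate could be left out, since each group is 1 sample, and genes with low values are limited by a depth that is unknown.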

Other observations

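Families of housekeeping machinery, grouped by symbol after values were seen, lay on the lower side in mutant cells. Proteasome subunits (Psma to Psmd), which degrade tagged proteins, were past 1 log2 unit on the lower side in 32 of 37 cases and never on the higher side, with a median of -1.95, where 2.05% of all genes were higher and 23.4% lower. The Cct chaperonin, which folds actin and tubulin, gave 9 of 9 lower, with a median of -2.46. Genes of spliceosome proteins with the prefix Snrp gave 10 of 12 lower, with a median of -2.65, and the mitochondrial ribosome 53 of 74. These medians were nearer 0 in cells with 3000 to 5000 genes, at -0.89 for the proteasome, -1.28 for Cct and -1.72 for Snrp genes. Zinc finger (Zfp) genes, by contrast, gave 1 higher and 16 lower of 286. Whether gene number per cell accounts for the rest was not tested.

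One cell of the series has labels that give it no group, with pool 4 in its title and an age of E13.5. It held 6570 genes, with Six2 at 143 RPKM, Pax2 at 24.7, Meis1 at 375 and Top2a at 364. Sfrp4, Foxd1 and Pdgfra were listed at 0.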
